A study of Mus musculus with 60 samples.

Results

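Slc38a1 and 7 further genes for plasma membrane amino acid transport (Slc38a2, Slc7a5, Slc3a2, Slc1a4, Slc1a5, Slc7a1 and Slc6a6) were followed through 3 count tables of mouse liver organoids grown from cholangiocytes, the epithelial cells of the bile ducts. The genes were found by matching their symbols to the Ensembl identifiers of the tables, and all 8 were present in each table, out of 31354 genes in the series. The group was drawn up because Slc38a1 had a low level in one set of single organoids, called Set 1, so every difference between Set 1 and the other sets is given below as a description and supports nothing. All cultures came from C57BL/6N mice of 3 to 4 months, and the labels name no transgene or drug treatment.

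The first table held 3 cultures in Matrigel domes and 3 in shaking suspension with dilute Matrigel, each started from material pooled from 2 to 4 mice. The second held bulk cultures of Sets 1, 3 and 4, each grown from the liver of a single mouse, at passage 4 and again at passage 11, with 2 technical replicates each, and their culture format is not stated in the sources used here. The third held organoids picked singly from suspension cultures, of which 35 kept by the study entered here: 8 from Set 1 at passage 11, 10 from Set 2 at passage 3, 5 from Set 3 at passage 3 and 12 from Set 4 at passage 4. Each set was 1 mouse and was picked at 1 passage, so set, mouse and passage cannot be told apart among the single organoids. Organoids of a set shared a culture and were no independent animals, and p-values between sets therefore measure only the spread between organoids.

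Amino acids cross the plasma membrane on carriers with partly shared cargo. Slc38a1 and Slc38a2 encode sodium-coupled carriers of system A, which load cells with glutamine, alanine and other small neutral amino acids. Slc1a4 and Slc1a5 encode exchangers of small neutral amino acids, the latter known for glutamine uptake in dividing cells. Slc7a5 encodes the light chain of an exchanger that brings in leucine and other large neutral amino acids, and it reaches the membrane only with the heavy chain encoded by Slc3a2, which also pairs with other light chains such as the cystine carrier Slc7a11. Slc7a1 carries arginine and lysine, and Slc6a6 carries taurine, which mouse liver joins to bile acids. Several of these genes are known targets of ATF4, the transcription factor that cells make more of when amino acids run short.

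In the GENCODE annotation of build GRCm38, the pair Slc38a1 (chr15:96571418-96642913) and Slc38a2 (chr15:96687392-96699730) lay beside each other on the minus strand of chromosome 15. Slc7a5 was at chr8:121881150-121907694, Slc3a2 at chr19:8706882-8723369, Slc1a4 at chr11:20302180-20332713 and Slc7a1 at chr5:148327410-148399904, all on the minus strand. Slc1a5 (chr7:16781340-16798274) and Slc6a6 (chr6:91684053-91759066) were on the plus strand. All 8 are protein coding. Slc7a5 overlapped Gm20388 on the other strand, and Slc6a6 overlapped Gm45828 on its own strand and 4930517G19Rik and Gm44981 on the other, so reads within those overlaps could have been assigned to either gene.

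Promoter windows reaching from 250 bases before to 50 bases after the annotated start (RefSeq, GRCm38.p6) were at hand for 4 of the 8 genes, Slc38a2, Slc3a2, Slc1a4 and Slc7a1. They were searched on both strands for TGATGNAA, the core of the element to which ATF4 and C/EBP proteins bind together. Of all 27025 genes with a window, 4.51% held this motif. Among the 4 transporters only Slc1a4 held it, across the start site on the reverse strand. Slc7a11 held it at 2 places, one on each strand, and was 1 of 2 genes with a match among 30 other amino acid transporters with a window, the other being Slc7a7. Of 23 genes of the amino acid response, 7 held the motif, among them Nupr1, a small stress-induced nuclear protein. Stretches of the windows of Slc1a4, Slc7a11 and Nupr1 are shown because these genes recur below, 5′ to 3′ on the strand of the gene with the motif in capitals. They lie on the minus strand at chr11:20332704-20332757, chr3:50443623-50443719 and chr7:126625543-126625620. A match is a description of the letters and not evidence of binding.
Slc1a4: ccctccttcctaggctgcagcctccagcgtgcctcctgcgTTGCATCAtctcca
Slc7a11: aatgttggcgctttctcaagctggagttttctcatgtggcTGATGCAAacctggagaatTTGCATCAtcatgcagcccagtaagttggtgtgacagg
Nupr1: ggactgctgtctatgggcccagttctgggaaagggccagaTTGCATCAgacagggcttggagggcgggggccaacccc

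Total counts ran from 1776490 to 14761853 in the dome and suspension cultures, from 1486347 to 5532630 in the bulk passages after summing technical replicates, and from 1059002 to 11175868 in the single organoids. Levels are given as CPM, the count scaled to a common library total after normalisation. The 3 tables were normalised apart, so levels from different tables are set side by side without a test, and levels of different genes are not compared. Cholangiocyte and ductal markers (Epcam, Krt19, Krt7, Sox9, Spp1, Cdh1) were all detected in each group, with summed levels of 2930 to 9132 CPM, and summed endothelial and mesenchymal markers did not exceed 2.42 and 0.691 CPM in any library. Hepatocyte markers were also present, with summed levels of 279 to 2665 CPM. In such samples, fewer cells of a type and less RNA per cell cannot be told apart.

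Slc38a1 had its highest levels in single organoids of early passages. In Set 2 the 10 organoids ranged from 16.5 to 58.4 CPM with a median of 36.8, and in Set 3 the 5 organoids had 26.2, 52.7, 36.9, 19.8 and 27.9 CPM. The 12 organoids of Set 4 ranged from 6.04 to 37.2 CPM with a median of 12.7. In Set 1 the 8 organoids ranged from 2.30 to 9.59 CPM with a median of 5.06, resting on 7 to 38 counts each. Set 1 thus lay wholly below Sets 2 and 3, and its highest organoid was above 3 of the 12 organoids of Set 4.

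The mean levels of Slc38a1 were ordered as Set 2 (36.7 ± 14.05 CPM, SD, n = 10), Set 3 (32.7 ± 12.8, n = 5), Set 4 (18.3 ± 11.3, n = 12) and Set 1 (5.07 ± 2.36, n = 8). Sets 2 and 3, neighbours in this order, were not told apart, with a log2 difference of 0.18 and a 95% confidence interval from -0.49 to 0.86. Set 3 was 0.89 (SE 0.32) above Set 4 on the log2 scale, which did not pass the threshold (edgeR quasi-likelihood test, adjusted p = 0.0643), although limma-voom and the fit without organoid 5 of Set 3 did pass it. Set 2 was 2.11-fold above Set 4 (log2 difference 1.07, SE 0.27, adjusted p = 0.0061). As a description, the fitted log2 difference of Set 1 was -2.92 against Set 2, -2.74 against Set 3 and -1.85 against Set 4.

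In bulk cultures of Sets 1, 3 and 4, Slc38a1 was not lowest in Set 1. At passage 11 it had 8.08 CPM in Set 1, 14.5 in Set 3 and 5.72 in Set 4, the last from 9 counts. At passage 4 the levels were 11.4, 12.7 and 7.57 CPM. Set 1 was between Sets 3 and 4 at each passage, with a single culture per set and passage. The log2 difference between passages was -0.06 with a confidence interval from -0.78 to 0.67 (adjusted p = 0.925), and 5 of 15 alternative fits gave a positive sign. The technical replicates of Slc38a1 differed by up to 1.18 on the log2 scale, the second widest gap among the 8 genes after Slc7a1.

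In dome and suspension cultures Slc38a1 was barely detected. The dome cultures held 10, 1 and 0 counts, or 0.761, 0.733 and 0 CPM. The suspension cultures held 4, 0 and 45 counts, or 0.842, 0 and 3.10 CPM. The counts of 0 allowed up to 1.65 CPM in dome culture 3 and 0.709 CPM in suspension culture 2. The gene did not pass the filter on low counts, so it was not tested here and no fold is given. The suspension culture with 45 counts stood above the rest, and the groups overlapped.

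The comparison of bulk cultures asked how gene expression differed with prolonged passaging. It found 5 of the 8 transporter genes lower at passage 11 and none higher, against a background of 10.1% of the 13738 genes tested called lower and 20.3% called in either direction. All 8 fitted log2 differences were negative, with a median of -1.22, where the median of all genes was -0.05. For 6 of the 8 genes the passages did not overlap, as for 39.5% of all genes. The 8 genes and the gene lists below were chosen with earlier results of these data known, so these counts are descriptions. Directions here rest on the passage numbers in the sample labels. The study's text and its figure legend name opposite directions for the proliferation genes between these passages, no measurement here checks the labels, and an exchange of the labels would reverse every direction between passages given below.

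Of the system A carriers, Slc38a2 had 79.1, 65.4 and 64.8 CPM in Sets 1, 3 and 4 at passage 4 and 32.3, 35.8 and 20.4 CPM at passage 11. The passages did not overlap, and the fitted level was 2.28-fold lower at passage 11 (log2 difference -1.19, SE 0.19, adjusted p = 0.00337). Slc38a1, its neighbour on the chromosome, is the member with the smallest difference, as given above.

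Slc3a2, the shared heavy chain, had 1180.3, 1052 and 724 CPM in Sets 1, 3 and 4 at passage 4 and 597, 331 and 312 CPM at passage 11. Every culture at passage 11 was below every culture at passage 4, and the level was 2.38-fold lower (log2 difference -1.25, SE 0.26, adjusted p = 0.0103). Its light chain Slc7a5 had 22.6, 30.9 and 29.2 CPM at passage 4 and 22.0, 14.5 and 10.2 CPM at passage 11. Taken alone, Sets 3 and 4 had log2 differences of -1.07 and -1.48, whereas Set 1 had -0.04. The fitted difference of Slc7a5, -0.77 (SE 0.25), missed the threshold (adjusted p = 0.052). It passed with the set as a replicate block (adjusted p = 0.0487) and in 8 of 15 alternative fits in all, among them those without Set 1 at passage 11 (log2 difference -1.09, adjusted p = 0.0174) or at passage 4 (-0.89, adjusted p = 0.0482).

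Both exchangers fell. Slc1a4 had 44.3, 28.2 and 26.9 CPM at passage 4 and 13.02, 13.9 and 6.36 CPM at passage 11, which was 2.77-fold lower (log2 difference -1.47, SE 0.27, adjusted p = 0.00617). Slc1a5 had 94.1, 97.1 and 89.7 CPM at passage 4 and 44.9, 36.4 and 35.0 CPM at passage 11, which was 2.40-fold lower (log2 difference -1.26, SE 0.14, adjusted p = 0.000837). Neither gene had overlapping passages, and Slc1a5 had the smallest adjusted p of the 8.

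The arginine and lysine carrier Slc7a1 had 28.3, 29.0 and 28.3 CPM at passage 4 and 15.03, 9.15 and 8.90 CPM at passage 11. The cultures were nearly alike at passage 4, and the level was 2.52-fold lower at passage 11 (log2 difference -1.33, SE 0.22, adjusted p = 0.00357). The taurine carrier Slc6a6 had 98.0, 149 and 132 CPM at passage 4 and 88.6, 101 and 106 CPM at passage 11. It was lower within each set, but the passages overlapped and the difference of -0.36 (confidence interval -0.74 to 0.01) was not called (adjusted p = 0.159). Without Set 1 at passage 4 it was -0.52 and was called (adjusted p = 0.0427).

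**Figure D1:**
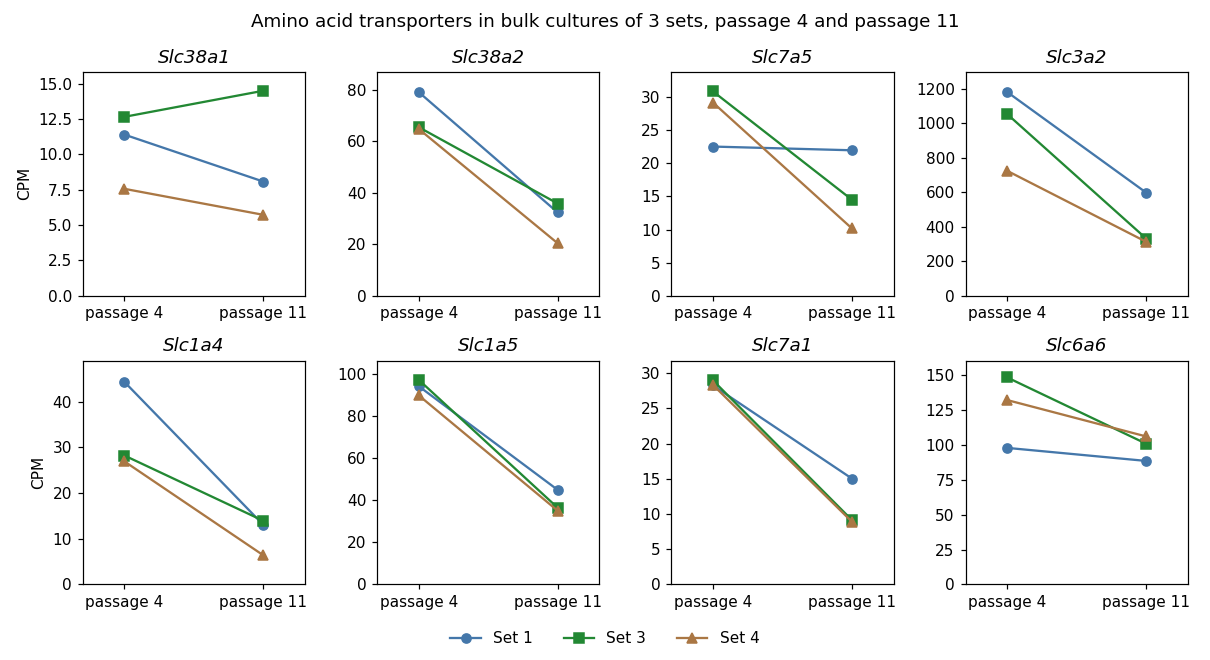
Level of each of the 8 transporter genes in CPM (vertical axis, from 0) in bulk cultures at passage 4 and passage 11, with 1 point per culture and a line joining the cultures of a set. Slc38a2, Slc3a2, Slc1a4, Slc1a5 and Slc7a1 were lower at passage 11 in all 3 sets, while Slc38a1 was higher in Set 3 and Slc7a5 hardly differed in Set 1.

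Other properties of the cultures moved with passage. The 20 proliferation genes summed to 483 to 566 CPM at passage 4 and 1225 to 1793 CPM at passage 11, with 17 of them called higher and none lower by the sample labels, the hepatocyte markers to 314 to 737 and 800 to 1153 CPM, and the mitochondrial share of counts was 1.99 to 2.63% and 0.895 to 1.71%. The ductal markers summed to 3320 to 6105 CPM and 5448 to 6111 CPM. Their part in the transporter differences was not tested. The culture with fewest counts, Set 4 at passage 11, had 10 to 491 counts for the 5 called genes, and all 5 were called when it or any other culture was left out.

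The list of 35 other amino acid transporters, drawn up for this report, had 17 members that passed the filter, of which 4 fell and none rose at passage 11. Of all genes 20.3% were called, 10.1% as lower. Slc7a3, a second carrier of cationic amino acids, fell from 13.2 to 24.2 CPM at passage 4 to 0.636 to 1.80 CPM at passage 11 (log2 difference -3.85, SE 0.37, adjusted p = 0.00038). Slc7a11, the cystine carrier that uses the Slc3a2 heavy chain, fell from 90.3 to 212 CPM to 12.1 to 21.1 CPM (log2 difference -3.02, SE 0.31, adjusted p = 0.000469). Slc38a7, a lysosomal glutamine carrier, fell by 0.86 on the log2 scale (SE 0.26, adjusted p = 0.0386). The fourth was the glycine carrier Slc6a9 (-3.89, adjusted p = 0.00482), at a low level. The median of the list, -0.34, compares with -0.05 over all genes.

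Among 25 genes of the amino acid response, 9 fell and none rose at passage 11, where 10.1% of all genes fell. This list was likewise chosen with earlier results known, and the count is a description. Their median log2 difference was -0.69. Among the more abundant of them, the largest falls were in Nupr1, from 1299 to 3832 CPM to 172 to 285 CPM (log2 difference -3.35, SE 0.38, adjusted p = 0.000813), in Ddit3, a transcription factor of endoplasmic reticulum stress (-2.86, SE 0.34, adjusted p = 0.000878), and in the angiogenic factor Vegfa (-2.38, SE 0.23, adjusted p = 0.000375). Of the 25 fitted differences, 22 were negative and 3 positive. Among the positive ones were Phgdh (0.47) and Psat1 (0.37), which act in serine synthesis, neither called. Atf4 itself had -0.96 (adjusted p = 0.0587).

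Of 20 cytosolic aminoacyl-tRNA synthetases, which charge transfer RNAs with amino acids, 4 fell and 1 rose. Of all genes 20.3% were called, and this count is not read as a result about the synthetases. Eprs fell by 1.14 on the log2 scale (adjusted p = 0.000905), Iars by 0.71 (adjusted p = 0.0201) and Aars by 0.69 (adjusted p = 0.0272), and Hars rose by 0.57 (adjusted p = 0.0144). Of 14 tested genes of glutamine use, Pfas, Ppat and Cad, which take the amide nitrogen of glutamine into purines and pyrimidines, rose by 1.17, 0.85 and 0.83 (adjusted p = 0.00835, 0.0154 and 0.0461). Gfpt1, which uses glutamine to make hexosamines, fell by 1.27 (adjusted p = 0.00181). Among 25 tested genes of amino acid sensing by mTORC1, 1 rose (Lamtor3, by 0.60, adjusted p = 0.0187) and 1 fell, a smaller share than over all genes. Neither of the 2 tested genes of taurine synthesis and bile acid conjugation was called.

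The comparison of culture formats asked how organoids in Matrigel domes differed from those in shaking suspension. Of the 7 transporter genes that passed the filter, 3 were called, against 29.8% of the 12699 genes tested, and this count is not read as a result about these genes. The median log2 difference was 0.00 against -0.04 for all genes, and the groups of 3 genes did not overlap, as for 47.4% of all genes.

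Slc38a2 had 16.3, 25.7 and 22.0 CPM in dome cultures 1 to 3 and 63.5, 52.5 and 61.3 CPM in suspension cultures 1 to 3. All suspension cultures were above all dome cultures, and the level in domes was 2.87-fold lower (log2 difference -1.52, SE 0.22, adjusted p = 0.00201). Slc1a4 went the other way, with 19.1, 16.1 and 24.7 CPM in domes and 7.79, 8.75 and 8.06 CPM in suspension, 2.44-fold higher in domes (log2 difference 1.29, SE 0.24, adjusted p = 0.00481). Both calls held in every alternative fit that was run.

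Slc7a1 had 8.15, 7.33 and 7.15 CPM in domes and 14.9, 14.7 and 10.6 CPM in suspension. The groups did not overlap, and the difference of -0.78 (SE 0.26) passed the threshold by a small margin (adjusted p = 0.0427). It was no longer called when any of the 6 cultures was left out, with adjusted p from 0.0568 without suspension culture 3 to 0.151 without suspension culture 1, nor by limma-voom, DESeq2, without a filter or after thinning, where adjusted p reached 0.37. The domes held 10, 13 and 107 counts of this gene.

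Slc3a2 had 228, 261 and 201 CPM in domes and 254, 343 and 304 CPM in suspension, with overlapping groups (log2 difference -0.39, SE 0.20, adjusted p = 0.172). Slc7a5 had 10.4, 13.2 and 19.2 CPM in domes and 6.52, 11.4 and 9.16 CPM in suspension (0.61, SE 0.31, adjusted p = 0.164). Heavy and light chain thus had fitted differences of opposite sign, neither called. Slc1a5 ranged from 19.1 to 47.8 CPM in domes and from 24.8 to 30.0 CPM in suspension, and Slc6a6 from 74.8 to 212 CPM and from 109 to 184 CPM. For these 2 genes the confidence intervals of the log2 difference, -0.55 to 0.80 and -0.75 to 0.75, leave room for changes in either direction.

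**Figure D2:**
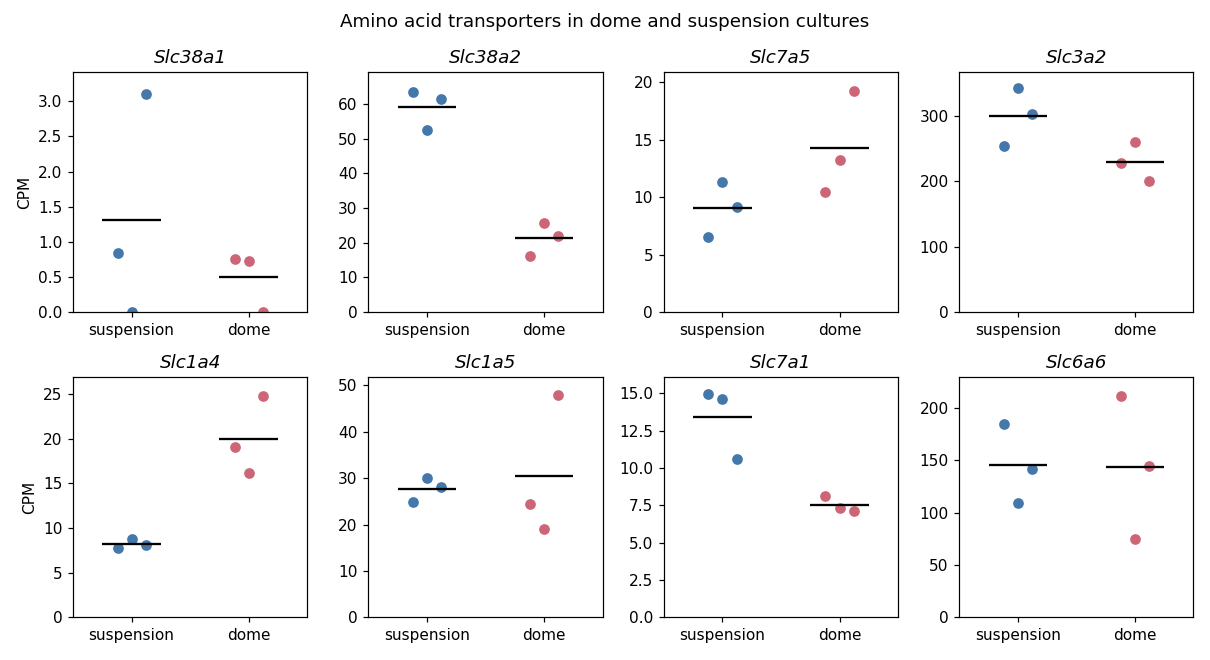
Level of each transporter gene in CPM (vertical axis, from 0) in 3 suspension and 3 dome cultures, with 1 point per culture and a line at the mean. Slc38a2 was higher in every suspension culture and Slc1a4 in every dome culture, and Slc38a1 did not exceed 3.10 CPM in any culture.

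In the same cultures the 20 proliferation genes summed to 329 to 708 CPM in domes and 1265 to 1537 CPM in suspension, with 19 called lower in domes and none higher, and the mitochondrial share was 1.64 to 2.02% and 3.72 to 4.02%. Macrophage markers summed to 6.93 to 93.1 CPM in domes and 3.37 to 9.46 CPM in suspension, with C1qa at 0 in all domes and Adgre1 at 0 in all suspension cultures. The hepatocyte markers overlapped, at 308 to 847 and 279 to 665 CPM. Their part in the transporter differences was not tested.

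Of 14 tested genes among the other transporters, Slc7a11 fell in domes (log2 difference -1.22, SE 0.27, adjusted p = 0.00919), and 2 rose, Slc6a19 (2.59, adjusted p = 0.0143) at a low level and Slc7a7, a light chain that exports cationic amino acids (0.77, SE 0.26, adjusted p = 0.0474). Of 24 tested genes of the amino acid response, 8 rose and none fell, where 1907 of all 12699 genes rose and 1872 fell. Nupr1 ranged from 44.3 to 1007 CPM in domes and from 23.4 to 78.7 CPM in suspension (log2 difference 3.23, SE 0.87, adjusted p = 0.0204). Ddit3 rose by 2.86 (SE 0.66, adjusted p = 0.0113) and Ddit4, an inhibitor of mTORC1, by 2.33 (SE 0.40, adjusted p = 0.00352). Of the genes with the motif named above, Nupr1, Slc1a4 and Slc7a7 were higher in domes and Slc7a11 was lower. The other response genes that held the motif are not listed here, so no pattern of motif genes is read from these.

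Among 14 tested genes of glutamine use, 5 rose and 3 fell in domes, where 29.8% of all genes were called. Gfpt1 rose by 1.47 on the log2 scale (adjusted p = 0.011), Glul, which makes glutamine, by 1.29 (adjusted p = 0.00809) and Got1 by 0.85 (adjusted p = 0.028). Cad fell by 1.22 (adjusted p = 0.0314) and Ctps, which makes CTP, by 1.17 (adjusted p = 0.0105). Of 25 tested genes of amino acid sensing, 3 rose and 2 fell, a smaller share than the 29.8% of all genes called. Lamtor2, Lamtor4 and Lamtor1, subunits of the lysosomal platform on which mTORC1 is activated, rose by 1.03, 0.77 and 0.68 (adjusted p = 0.00481, 0.00949 and 0.0219), and the mTORC1 substrate Rps6kb1 fell by 0.70 (adjusted p = 0.0447). Of the 20 synthetases, Eprs and Qars fell by 0.80 and 0.78 (adjusted p = 0.0267 and 0.0406) and none rose. Neither of the 2 tested genes of taurine synthesis and conjugation was called.

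Between sets of single organoids at early passages, the tests used p-values adjusted over all genes and all pairs of sets together, and the comparisons share organoids. Sets 2 and 3, both at passage 3, differed in none of the 8 transporters, where 3.93% of 13927 genes were called. At an unadjusted p below 0.05, 1811 genes passed, among them 1 transporter, Slc3a2, which was also called by DESeq2 (adjusted p = 0.036). Set 2 was higher than Set 4 in 3 transporters, Slc38a1, Slc3a2 and Slc7a1, with 12.4% of genes called and 7.02% called higher. Set 3 was higher than Set 4 in 1, Slc6a6, with 11.6% of genes called and 7.89% called higher.

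Slc3a2 ranged from 323 to 1010.4 CPM in Set 2 with a median of 527, from 313 to 460.2 CPM in Set 3 with a median of 358, from 283 to 506 CPM in Set 4 with a median of 384 and from 184 to 539 CPM in Set 1 with a median of 290.1. Its level in Set 2 was 1.55-fold above that in Set 4 (log2 difference 0.63, SE 0.18, adjusted p = 0.0143). The 2 highest of all 35 organoids, with 1010.4 and 939.6 CPM, were organoids 2 and 6 of Set 2. Without them the difference was 0.37 and was not called (adjusted p = 0.135), and with all 42 organoids it was 0.57 and was not called (adjusted p = 0.0767). Across the 35 organoids, centred within sets, Slc3a2 had a Pearson correlation of -0.68 with the log2 of the total count, whose part in this difference was not tested.

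Slc7a1 ranged from 17.6 to 88.5 CPM in Set 2, with a median of 27.3, and from 11.3 to 34.9 CPM in Set 4, with a median of 20.2. The difference was 1.81-fold (log2 0.86, SE 0.26, adjusted p = 0.0222), and it missed the threshold with all 42 organoids (adjusted p = 0.0521) and with the organoid number as a replicate block (0.127). In Set 3 the gene had 22.0, 52.7, 20.6, 40.3 and 31.6 CPM, and in Set 1 it ranged from 10.1 to 44.7 CPM with a median of 19.1.

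Slc6a6 had 236, 352, 439, 225 and 379 CPM in Set 3 and ranged from 118 to 276 CPM with a median of 186 in Set 4. Set 3 was 1.72-fold above Set 4 (log2 0.79, SE 0.25, adjusted p = 0.0349). The call was lost without organoid 3, 4 or 6 of Set 3 (adjusted p = 0.0735, 0.121 and 0.0861), with all 42 organoids (0.262), by limma-voom (0.0576) and after thinning (0.0521). In Set 2 the gene ranged from 71.0 to 374 CPM, and the 2 lowest values, 71.0 and 82.8 CPM, again belonged to organoids 2 and 6. Without those organoids Set 2 was above Set 4 by 0.60 (adjusted p = 0.0155), against 0.38 (adjusted p = 0.249) with them.

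For Slc38a2, Slc7a5, Slc1a4 and Slc1a5 no pair of Sets 2, 3 and 4 was called. Slc38a2 had medians of 69.1, 74.2 and 59.6 CPM in Sets 2, 3 and 4, with 95% confidence intervals of the log2 differences that stayed between -0.42 and 0.69. Slc1a5 had medians of 38.8, 33.2 and 30.2 CPM. Slc1a4 ranged from 2.39 to 15.6 CPM in these sets and Slc7a5 from 0.508 to 8.20 CPM, the latter from 1 to 25 counts. Between Sets 2 and 3 the interval of the log2 difference of Slc7a5 was -0.65 to 0.93. Proliferation genes summed to 1733 to 2936, 1718 to 2214 and 1330 to 2547 CPM in Sets 2, 3 and 4, and hepatocyte markers to 559 to 1540, 462 to 705 and 515 to 2665 CPM.

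As a description of Set 1, 7 of the 8 fitted differences were negative against Set 2, 7 against Set 3 and 6 against Set 4. Past the threshold were 5, 1 and 2 of the 8, where 14.3%, 9.43% and 20.0% of all genes were past it. Each of these counts includes Slc38a1, whose low level chose the group, so the counts support nothing. The 1 against Set 3 was Slc38a1 itself, so that count rests wholly on the gene that chose the group. The other against Set 4 was Slc6a6, which was higher. The positive differences were Slc7a1 against Set 4, at 0.02, and Slc6a6 against each set, at 0.65, 0.24 and 1.03, with a range of 250.5 to 591 CPM in Set 1. Slc7a5 was at 0.660 to 3.47 CPM in Set 1, resting on 1 to 17 counts, and Slc1a4 at 3.69 to 6.39 CPM. Slc38a2 ranged from 29.8 to 86.9 CPM and overlapped every other set. Proliferation genes summed to 728 to 2248 CPM in Set 1. Of the 20, 11, 2 and 15 were past the threshold and lower in Set 1 against Sets 2, 3 and 4, and none was higher. Between bulk passages the direction was the other way by the sample labels, with 17 called higher at passage 11. Hepatocyte markers summed to 560 to 2434 CPM in Set 1, with 2, 1 and 3 of the 5 tested past the threshold and higher against Sets 2, 3 and 4. In bulk culture at passage 11, Set 1 had the highest level of the 3 sets for Slc7a5, Slc3a2, Slc1a5 and Slc7a1, at 22.0, 597, 44.9 and 15.03 CPM, and the lowest for Slc6a6, at 88.6 CPM.

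**Figure D3:**
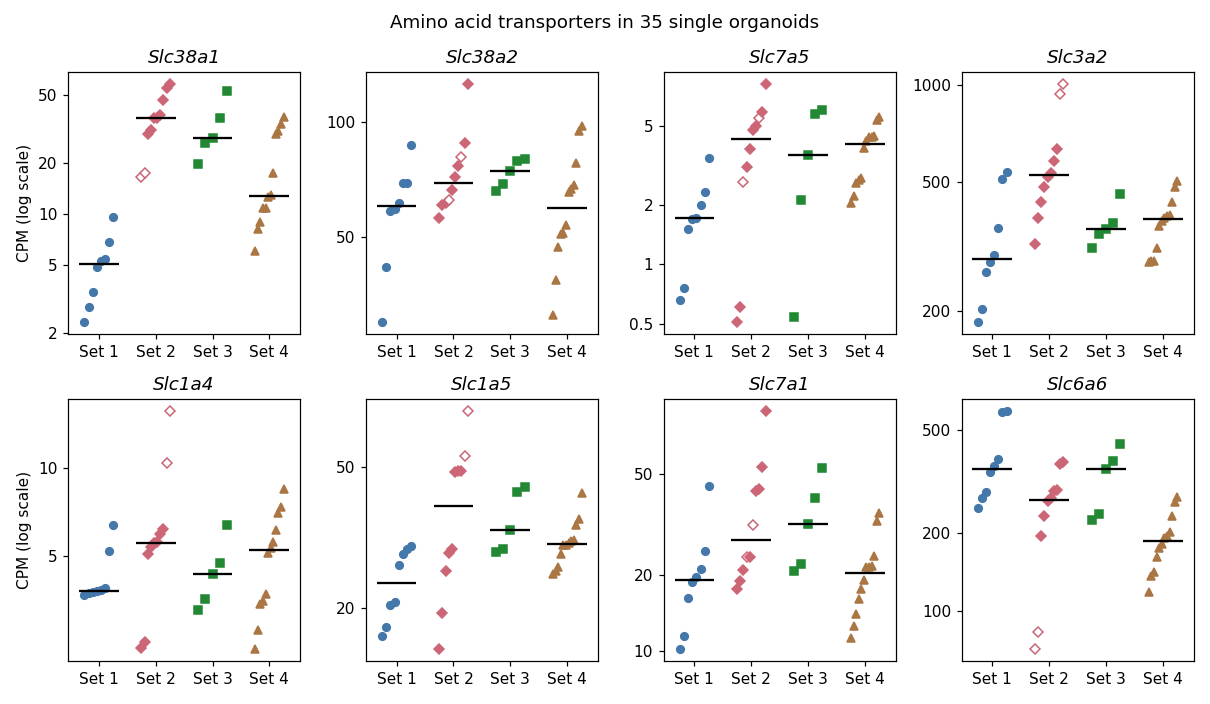
Level of each transporter gene in CPM (vertical axis, log scale) in 35 single organoids by set, with 1 point per organoid in rising order and a line at the median. Open diamonds are organoids 2 and 6 of Set 2, which had the highest Slc3a2 and the lowest Slc6a6, and all Set 1 organoids were at or below 9.59 CPM for Slc38a1.

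**Figure D4:**
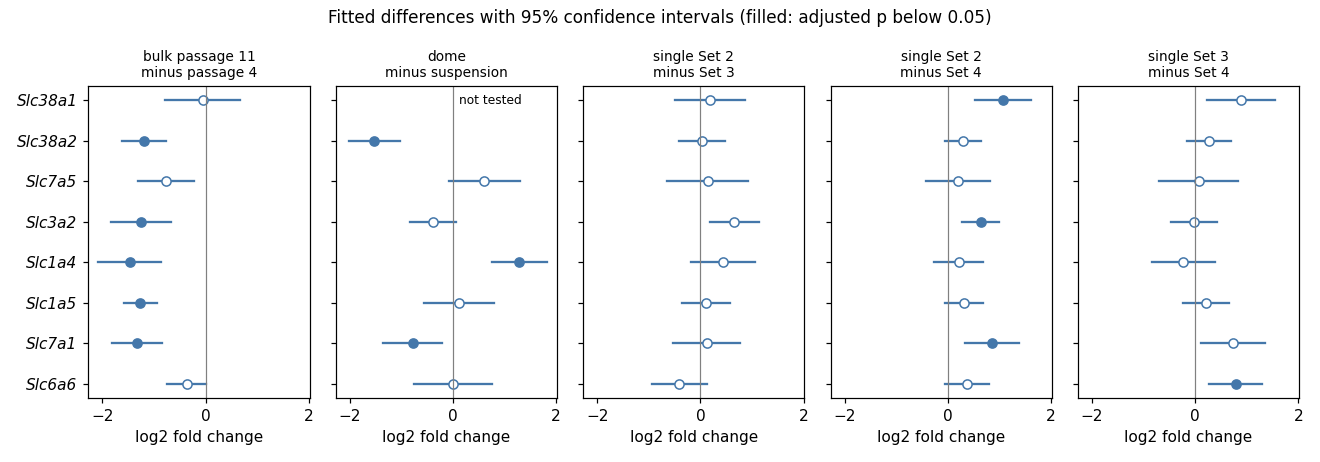
Fitted log2 fold change (horizontal axis) of each transporter gene in the 5 tested comparisons, with 95% confidence intervals and filled points where the adjusted p was below 0.05. In bulk cultures 5 genes were called lower at passage 11, and no gene was called between Sets 2 and 3.

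Of 24 tested genes of the amino acid response, 13 were higher in Set 2 than in Set 4 and none lower. Against Set 3, 3 were higher in Set 2 (Nupr1, Psph and Eif4ebp1, by 0.94, 0.72 and 0.64) and none lower. Between Sets 3 and 4 there were 2 in each direction. Of all genes, 12.4%, 3.93% and 11.6% were called in these comparisons, in this order. Trib3, a pseudokinase induced by ATF4, was above Set 4 by 1.62 in Set 2 (SE 0.29, adjusted p = 0.000168) and by 1.22 in Set 3 (SE 0.35, adjusted p = 0.0183). Nupr1 was above Set 4 by 1.03 in Set 2 (SE 0.19, adjusted p = 0.0003), and Mthfd2, of mitochondrial folate metabolism, by 1.18 (SE 0.22, adjusted p = 0.000189). Of the 15 other transporters tested, 1 was called in each comparison with Set 4, a smaller share than over all genes. The called gene was Slc7a11, at 29.9 to 112 CPM in Set 2, 22.3 to 147 CPM in Set 3 and 6.91 to 24.0 CPM in Set 4 (log2 differences 1.95 and 2.60, adjusted p = 1.16e-05 and 6.34e-07).

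Among 20 synthetases, 6 were higher in Set 2 and 3 in Set 3 than in Set 4, led by Lars (1.02 and 0.91, adjusted p = 0.000513 and 0.00975), and none was lower. Of all genes, 7.02% and 7.89% were called higher. Between Sets 2 and 3 only Qars was called (0.75, adjusted p = 0.0169). Among 25 tested genes of amino acid sensing, 3 were higher and 2 lower in Set 2 than in Set 4. In Set 3, 1 was higher and 1 lower than in Set 4, and none was called between Sets 2 and 3. Of 14 tested glutamine genes, 1 was higher in Set 2 and 2 were higher in Set 3 than in Set 4. Of all genes, 12.4% were called between Sets 2 and 4 and 11.6% between Sets 3 and 4. These counts of sensing and glutamine genes are not read as a result about them. Glud1, which releases ammonia from glutamate in mitochondria, was above Set 4 by 0.55 in Set 2 and by 0.87 in Set 3 (adjusted p = 0.00255 and 8.64e-05). Csad, an enzyme of taurine synthesis, had 11.6 to 18.4 CPM in Set 3, 6.22 to 10.3 CPM in Set 2 and 4.30 to 16.8 CPM in Set 4. Set 3 was higher in Csad than Set 2 (log2 difference of Set 2 minus Set 3 -0.78, adjusted p = 0.0123) and than Set 4 (0.62, adjusted p = 0.04), as it was for the taurine carrier Slc6a6 against Set 4. Of the 20 proliferation genes, 2 were lower in Set 2 than in Set 4 and 1 was lower in Set 3, in each case a smaller share than over all genes.

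Organoids of a set differed from each other in these genes. The standard deviation of log2 CPM within sets was 0.69 for Slc38a1, against a median of 0.42 for 2200 genes of like abundance and 0.48 for all genes. It was 0.62 for Slc7a1 and 0.57 for Slc6a6, where genes of like abundance had medians of 0.40 and 0.36. For Slc6a6 it was 0.83 in Set 2, which holds organoids 2 and 6, and 0.47, 0.43 and 0.37 in Sets 1, 3 and 4. Slc38a2 with 0.42 (0.37 at like abundance), Slc3a2 with 0.43 (0.36), Slc1a5 with 0.44 (0.39) and Slc1a4 with 0.52 (0.52) were nearer to such genes. Slc7a5 had 0.74 (0.61) and the fewest counts. Within Set 4 Slc38a1 spanned 6.16-fold, from 6.04 to 37.2 CPM, with 4 organoids between 29.5 and 37.2 CPM and the other 8 at 17.5 CPM or below. Those 4 had total counts of 1059002 to 2071961, where the other 8 had 1316448 to 7383116. Over all sets, centred within sets, the Pearson correlation with the log2 of the total count was -0.31 for Slc38a1, -0.49 for Slc38a2 and -0.34 for Slc7a1. It was 0.02 to 0.16 for Slc7a5, Slc1a4, Slc1a5 and Slc6a6. The part of depth in this spread was not tested.

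Pairs of transporters were compared from organoid to organoid. Over the 35 organoids, on log2 CPM centred within sets, Slc1a4 and Slc1a5 had the highest Pearson correlation of all 28 pairs (0.72, Spearman 0.61), followed by Slc7a5 and Slc1a5 (0.62, Spearman 0.51) and Slc38a1 and Slc6a6 (0.57, Spearman 0.55). Slc7a5 and its heavy chain Slc3a2 had -0.01. Organoids 2 and 6 of Set 2 were high in Slc1a4 (10.4 and 15.6 CPM) and Slc1a5 (53.7 and 71.8 CPM), the highest of all organoids in each gene, and at the low end of Set 2 in Slc38a1 (16.5 and 17.5 CPM). They also had the highest summed hepatocyte markers of Set 2, 1540 and 1349 CPM, where the other 8 had 559 to 1032 CPM, and the lowest total counts, 1298591 and 1180937, where the other 8 had 1524980 or more. Organoid 8 of Set 2, which the study left out, had 1152914 counts and 896 CPM of Slc3a2, 89.8 of Slc6a6, 61.8 of Slc1a5 and 14.5 of Slc38a1. The part of depth and of hepatocyte markers in these levels was not tested. Without organoids 2 and 6 of Set 2 the order changed, with 0.68 for Slc7a5 and Slc1a5, 0.59 for Slc1a4 and Slc1a5 and 0.44 for Slc38a1 and Slc6a6, the last below 5 further pairs. Without the 2 organoids farthest from the median in the first gene of each pair, these 3 pairs had 0.41, 0.59 and 0.56. Slc7a5 rested on 1 to 25 counts per organoid, which limits its values with every other gene. Within Set 4, the set with most organoids, Slc7a5 and Slc1a5 had 0.06, Slc1a4 and Slc1a5 0.51 and Slc38a1 and Slc6a6 0.45. In Sets 1, 2 and 3, Slc7a5 and Slc1a5 had 0.65, 0.77 and 0.52. Slc1a4 and Slc1a5 had 0.65, 0.87 and 0.48 there, and Slc38a1 and Slc6a6 had 0.71, 0.74 and 0.67. The points share library depth and culture, and these values are descriptions.

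**Figure D5:**
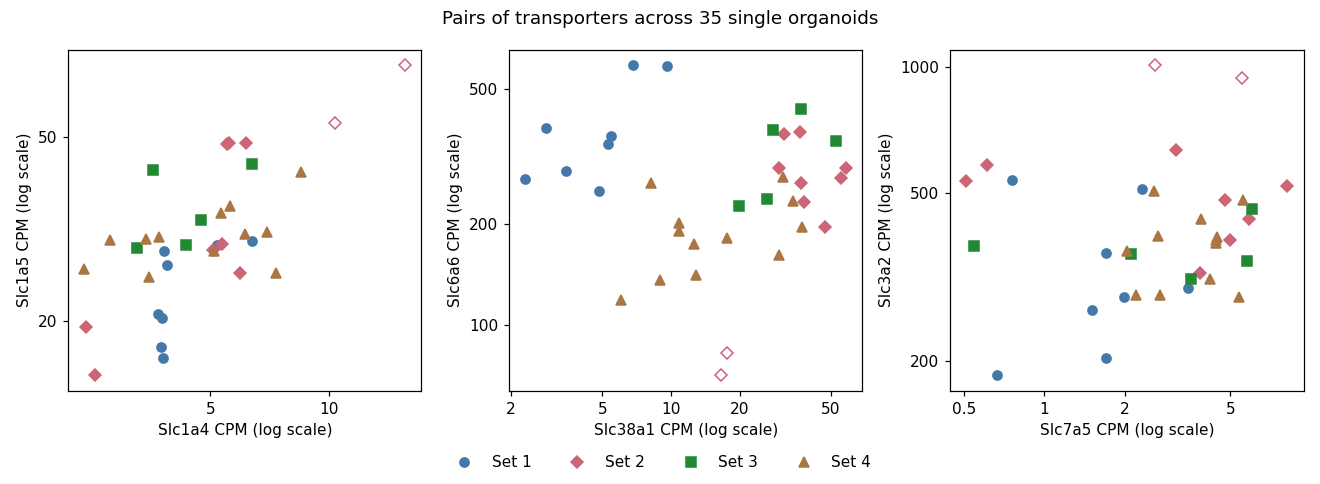
Levels of 3 pairs of transporter genes in 35 single organoids (CPM, both axes on a log scale), with 1 point per organoid and open diamonds for organoids 2 and 6 of Set 2. Slc1a4 and Slc1a5 (0.72) and Slc38a1 and Slc6a6 (0.57) were positively correlated within sets, and Slc7a5 and Slc3a2 (-0.01) were not.

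The genes whose levels followed Slc38a1 most closely across the 35 organoids were sought among 6229 genes of sufficient abundance, with the transporters themselves left out. They were Zfp281, a zinc finger transcription factor (Spearman 0.742), Trmt10a, a methyltransferase of transfer RNA (0.717), Ttc37, a part of the complex that assists RNA decay (0.717), Rlim, a ubiquitin ligase (0.715), and Gm12183 (0.715). These values were centred within sets and do not reflect the low level in Set 1, where Zfp281 had a mean of 17.4 CPM against 19.5, 29.1 and 15.5 CPM in Sets 2, 3 and 4.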

How the data were processed

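The authors made gene counts from barcoded 3′-end libraries with zUMIs, STAR, SAMtools and featureCounts on mm10, with libraries down-sampled by size variability, and deposited count tables. The sources used here do not say whether these counts are reads or molecules. Libraries were prepared from mRNA (single organoids) or total RNA (bulk), with single-organoid input scaled to Actb. Here, counts were tested with edgeR 4.0.16 in R 4.3.3 (TMM, filterByExpr with a minimum count of 3, quasi-likelihood test, Benjamini-Hochberg adjustment, threshold 0.05) over all genes. Technical replicates were summed. The 4 sets of single organoids were fitted together, with 1 adjustment over all 6 pairs. Alternatives were limma-voom (limma 3.58.1), DESeq2 1.42.0 and those in the closing section. Scripts were tested on simulated data.

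The 8 transporters, the gene lists and the tests were chosen with earlier results of these data known. Named genes were the 8 transporters, and from each list the 3 called genes per direction with the largest change at an average log2 CPM of at least 3. Further genes (Slc6a9, Slc6a19, and Phgdh, Psat1 and Atf4 at passage 11) were added after their values were seen. Correlations used log2 CPM with a prior count of 2. Counts of 0 were given a limit of 3 counts. Such limits cover counting error only.

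Deviations of same-numbered dome and suspension cultures were weakly correlated (0.153 to 0.191). Bulk sets were the same mouse at both passages, although their deviations were also only weakly correlated (0.0283 in Set 3, 0.11 and 0.108 in Sets 1 and 4). The main fits carried no term for these pairs, and fits with a replicate block are given in the closing section. No replicate pair was alike within sampling noise.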

Additional observations from a re-analysis of the deposited data

How the results depend on the processing

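Fitted log2 differences of the 8 transporters kept their direction wherever they were called. Over the alternative fits, 513 fitted differences stayed on their side of the threshold, most of which were not called in the main fit either. Another 20 lost a call and 14 gained one, none with a called value of reversed sign. Most lost calls were of Slc7a1 between domes and suspension, called in 3 of 13 alternatives, and of Slc6a6 between Sets 3 and 4, called in 9 of 15. With each culture left out in turn, 1893 to 3837 genes were called between domes and suspension (3779 with all), 1552 to 2244 between passages (2784 with all), and, over the organoids of Set 3, 803 to 1895 between Sets 3 and 4 (1610 with all), with 0 to 2 transporters. Thinning every library to the smallest total gave 1694 genes between passages, 1044 between Sets 2 and 4, and 986 between Sets 3 and 4 with 0 transporters. The first technical replicate alone gave 1717 genes between passages.

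With all 42 organoids, 252 genes were called between Sets 2 and 3, 977 between Sets 2 and 4 with 1 transporter, Slc38a1, and 716 between Sets 3 and 4 with 0 transporters. DESeq2 called 1 transporter between Sets 2 and 3, where adjustment within the comparison gave 180 genes and a fit of these 2 sets alone gave 61. A fit of Sets 3 and 4 alone called 2839 genes and 2 transporters. The cause was not tested.

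With a replicate block, domes and suspension gave 4019 genes and 3 transporters, and passages 2950 genes and 6 transporters, Slc7a5 being added. No other call on a transporter changed in these paired fits. Organoid numbers are only names, and the block on them gave 418 genes between Sets 2 and 3, 897 between Sets 2 and 4, where the call of Slc7a1 was lost, and 731 between Sets 3 and 4. The fit without Set 2 organoids 2 and 6 was chosen after seeing the data. Counts were low for Slc7a5 and Slc1a4 in single organoids and for Slc38a1 in the dome and suspension cultures.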

Other observations

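The study left 7 organoids out of its comparisons, and they were left out here as well. Their total counts were 666660 to 1152914, where the kept organoids had 1059002 to 11175868. In the 2 left out of Set 1, Slc38a1 had 10.3 and 9.28 CPM from 11 and 8 counts, near the highest kept organoid of that set. In the others Slc38a1 had 14.5 CPM in Set 2, 17.5 in Set 3 and 18.3, 24.9 and 30.5 in Set 4.

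The taurine carrier Slc6a6 was lower in the organoids left out of Sets 1 to 3 than in most kept ones. It had 117 and 87.0 CPM in Set 1, where the kept organoids had 250.5 to 591, 89.8 CPM in Set 2, where they had 71.0 to 374, and 86.4 CPM in Set 3, where they had 225 to 439. In Set 4 the 3 left out had 208, 222 and 218 CPM, within the kept range. Slc3a2 had 537 and 1033 CPM in the organoids left out of Set 1, 896 in Set 2, 776 in Set 3 and 527, 593 and 558 in Set 4. All 3 of Set 4, that of Set 3 and 1 of Set 1 were above every kept organoid of their set. The smallest such gap was in Set 4, at 527 against 506 CPM. Among the kept organoids, Slc3a2 had a Pearson correlation of -0.68 with the log2 of the total count, and the left-out ones had few counts. The part of depth was not tested, and these organoids were not tested against the kept ones.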
